A study of Homo sapiens with 10 samples.

Results

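The genes described here are the Groucho corepressors and the TCF/LEF factors that recruit them to DNA, 9 genes in all. They are TLE1, TLE2, TLE3, TLE4, TLE5, TCF7, TCF7L1, TCF7L2 and LEF1. Of the 9, 8 had a transcript cluster of their own, the unit in which the array reads a gene, out of 20961 clusters with a gene symbol. No cluster carried TCF7 as its only symbol in the annotation used, so TCF7 was not analysed here. The brightest cluster of each gene was to be read, among those that named no other gene, and each of the 8 had only 1 such cluster. The family was chosen by the log2 changes of TLE4 under the A347S and Δ486 mutants, which were already known, so the values of TLE4 with these mutants are given as a description in every comparison, without a test.

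The cells were Panc1, an established line from a human pancreatic carcinoma that the sample labels call pancreatic epithelial cells. All groups were transduced with adenovirus for 48 h at a multiplicity of infection of 150. The vector carried nothing (empty vector, EV), wild type KLF11 or 1 of 3 mutants. KLF11 is a Krüppel-like zinc finger factor that binds GC-rich promoters. A347S changes the proline-rich region that binds WD40 proteins, Δ486 lacks the end of the protein that couples to HP1 and histone methyltransferases, and EAPP has prolines in the helix that binds Sin3 and histone deacetylases. Every construct is an epitope-tagged overexpression construct in a line with its own KLF11 gene. Each of the 5 conditions had 2 arrays, which the methods and the extract protocol describe as technical duplicates of RNA pooled from separate cultures, whereas the sample titles call them biological replicates. Errors and p-values therefore measure the spread between arrays, which may be technical. Values are log2 expression after Robust Multiarray Analysis, and a difference of 1 is a 2-fold change.

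Groucho proteins, named TLE in humans, do not bind DNA. They are brought to genes by DNA-binding factors and repress there, in part through histone deacetylases. TLE1 to TLE4 end in a WD40 propeller, while TLE5, also called AES, is a short family member without it. TCF and LEF factors bind the same short DNA motif with an HMG box. Without a Wnt signal they hold Groucho proteins and keep target genes low, and when Wnt stabilizes β-catenin, it takes the place of the corepressor and the targets are expressed. TCF7L1 is known mainly as a repressor, LEF1 mainly as an activator, and TCF7L2 is the TCF factor best known in intestine and in diabetes genetics.

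The promoter windows of the 3 genes whose change passed both thresholds in some comparison (see the values further on) are printed first, because KLF11 is known to bind the letters CCCCGC and, in another form, CCCCAC, while TCF/LEF factors bind a core with the letters TCAAAG. Sequences are from RefSeq, build GRCh38.p14, read 5′ to 3′ on the strand of the gene, from 250 bases before an annotated transcription start to 50 after it. Capitals mark these letters on either strand. TLE4 has 2 annotated windows on the plus strand of chromosome 9, chr9:79571715-79572014 and chr9:79572927-79573226, the LEF1 window is on the minus strand at chr4:108166252-108166551, and the outermost of the 3 TCF7L2 windows is on the plus strand at chr10:112949997-112950296.
TLE4, the outer window: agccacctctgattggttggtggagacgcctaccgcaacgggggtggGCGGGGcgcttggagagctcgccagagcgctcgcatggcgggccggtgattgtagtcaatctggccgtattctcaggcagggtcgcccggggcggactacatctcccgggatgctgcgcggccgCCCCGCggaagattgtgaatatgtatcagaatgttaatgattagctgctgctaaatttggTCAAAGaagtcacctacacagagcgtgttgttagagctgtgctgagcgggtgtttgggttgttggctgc
TLE4, the inner window: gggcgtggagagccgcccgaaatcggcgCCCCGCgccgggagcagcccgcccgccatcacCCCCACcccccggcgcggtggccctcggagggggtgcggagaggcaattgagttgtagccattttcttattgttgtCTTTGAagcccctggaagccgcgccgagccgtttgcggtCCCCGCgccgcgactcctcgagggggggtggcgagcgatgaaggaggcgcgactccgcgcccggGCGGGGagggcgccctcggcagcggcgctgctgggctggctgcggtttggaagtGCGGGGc
LEF1: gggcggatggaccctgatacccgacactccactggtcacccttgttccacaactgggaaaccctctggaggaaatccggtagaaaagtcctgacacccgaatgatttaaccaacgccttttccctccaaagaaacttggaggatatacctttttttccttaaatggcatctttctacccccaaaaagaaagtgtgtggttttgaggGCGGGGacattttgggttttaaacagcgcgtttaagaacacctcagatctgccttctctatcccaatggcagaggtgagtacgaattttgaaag
TCF7L2, the outermost window: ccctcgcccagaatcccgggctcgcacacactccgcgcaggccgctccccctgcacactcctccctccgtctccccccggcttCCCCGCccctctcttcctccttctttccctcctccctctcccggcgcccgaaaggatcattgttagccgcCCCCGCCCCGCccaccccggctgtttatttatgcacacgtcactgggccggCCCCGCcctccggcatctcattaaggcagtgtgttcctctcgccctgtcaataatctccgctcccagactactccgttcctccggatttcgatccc

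The outer TLE4 window held CCCCGC 2 times and the inner window 4 times, and the inner window also held CCCCAC 1 time. LEF1, whose low signal moved in the same direction as that of TLE4, held CCCCGC 1 time. The printed TCF7L2 window held CCCCGC 4 times, where a pair of matches overlap. The middle TCF7L2 window held only CCCCAC, 1 time, and the innermost held neither form. TCAAAG stood 1 time in each TLE4 window and was not among the letters of the LEF1 window or of the TCF7L2 windows. Over all 9 genes there were 17 windows, and 15 of them held at least 1 form of the KLF11 letters on either strand, against 57.2% of the 35116 windows of all genes. These 17 windows had a GC content of 42.7% to 80.0%. The GC content of the 35116 windows was not computed, and several of the 17 belong to the same gene, so the shares are not matched. For TCAAAG the numbers were 3 of 17 and 12.9%. These letter matches are a description of the windows and say nothing of binding in these cells. TLE4 and TLE1 are next to each other among the coding genes of chromosome 9, and TLE2 and TLE5 are next to each other on chromosome 19.

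The check of the samples comes before the members. The median of the 20961 clusters lay between 6.81 and 6.87 on the 10 arrays, and the arrays of a condition correlated at 0.996 to 0.997 across clusters. KLF11 itself was at 8.37 and 7.75 with empty vector and between 8.68 and 8.88 on all other arrays, and it is not known here whether the probes see the transduced copy. Of 6 epithelial markers, KRT8, KRT18, KRT19 and EPCAM lay above the median cluster, while KRT7 and the E-cadherin gene CDH1 (4.71 to 5.12) lay below it. The mean of the 6 was 9.41 to 9.44 with empty vector, 9.13 to 9.23 with wild type KLF11 and at most 9.08 with A347S. It was 9.12 to 9.16 with Δ486 and 9.32 to 9.39 with EAPP. KRT19 differed most from empty vector, by -0.99, -1.51, -1.06 and -0.44 with wild type KLF11, A347S, Δ486 and EAPP. The part of this shift in the results below was not tested. Of 10 measured markers of immune, endothelial, fibroblast, endocrine and acinar cells, COL1A1 alone lay above the median cluster, and the mean of the 10 stayed between 5.13 and 5.24 on every array.

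TLE4, a full-length Groucho corepressor, was the gene of the family with the widest span between conditions. The empty vector arrays were at 5.58 and 5.72, the lowest of the 10. The wild type KLF11 arrays were at 6.59 and 6.48, the A347S arrays at 7.20 and 7.30, the Δ486 arrays at 7.36 and 7.16, and the EAPP arrays at 6.61 and 6.12. The 2 empty vector arrays lay below all 8 others, the 4 arrays of A347S and Δ486 lay above all others, and the wild type and EAPP arrays overlapped between them.

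**Figure D1:**
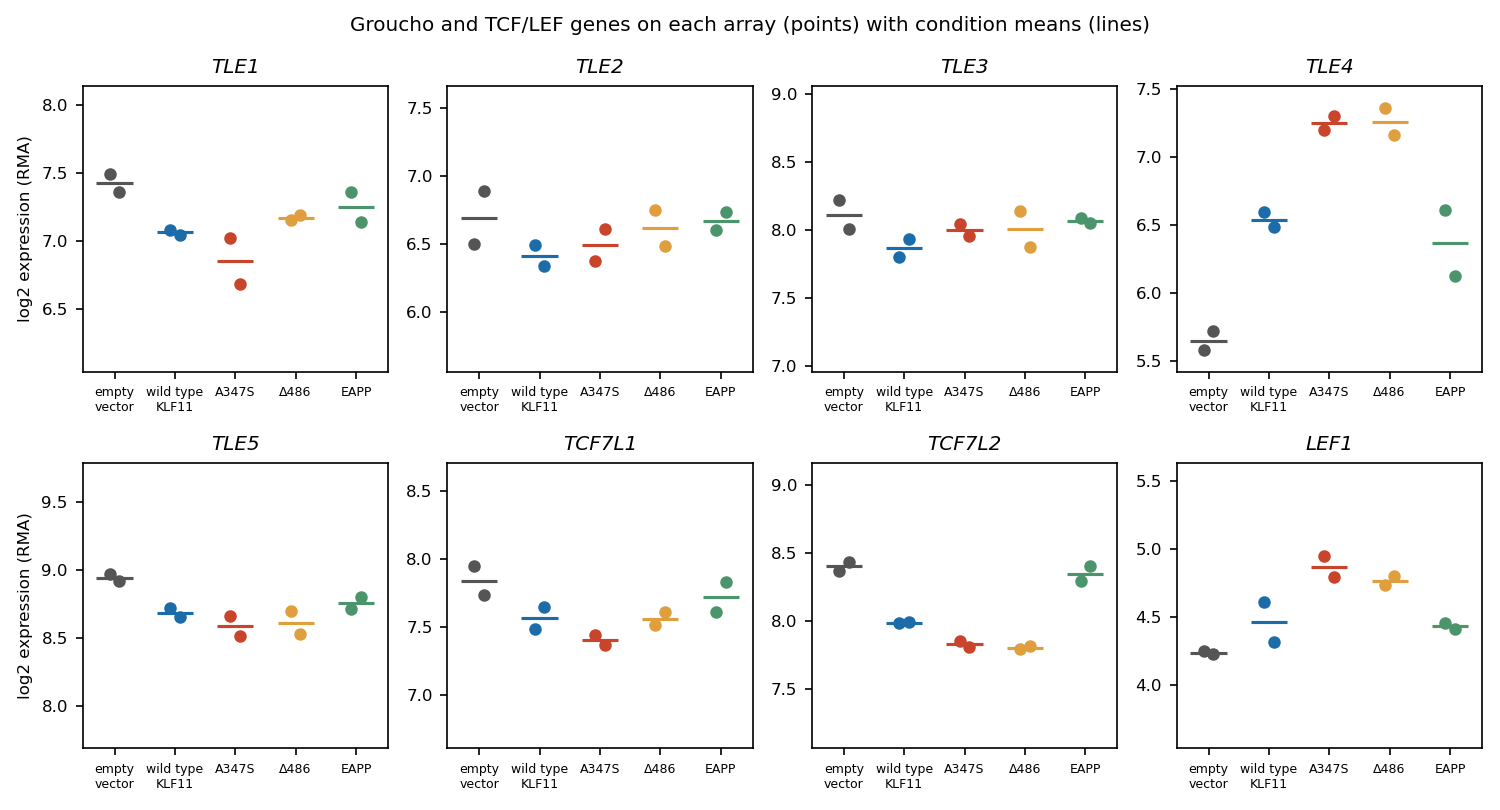
Log2 expression (RMA, vertical axes, all of the same span) of the 8 measured genes in the 5 conditions, with 1 point per array and a line at the mean of the 2 arrays. TLE4 and LEF1 sit lowest with empty vector and highest with A347S and Δ486, and TCF7L2 shows the opposite order with EAPP beside empty vector.

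Against empty vector TLE4 was higher by 0.89 on the log2 scale with wild type KLF11, 1.60 with A347S, 1.61 with Δ486 and 0.72 with EAPP (standard error 0.14 each, 2 arrays per condition). In linear terms A347S and Δ486 were 3.03-fold and 3.05-fold above empty vector. The EAPP value leans on its arrays, at 0.96 without the second and 0.47 without the first. A change is called here where it has an adjusted p under 0.05 and is at least 1.5-fold. The comparisons of wild type KLF11 and EAPP with empty vector did not choose the family. They share the empty vector arrays with those that did, so their p-values for TLE4 are not free of that choice. TLE4 was called with wild type KLF11. With EAPP it was 1 of the 38 clusters (0.181%) at an unadjusted p under 0.05 with that fold, was not called at its adjusted p of 0.224, and was called with a variance trend and robust moderation (adjusted p = 0.0389). The share of all clusters called with that moderation is not given here, so that call has no background beside it.

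The constructs were also compared directly. TLE4 stood 0.88 lower with EAPP than with A347S, and 0.89 lower than with Δ486. It stood 0.71 higher with A347S than with wild type KLF11 and 0.72 higher with Δ486. These differences rest on the arrays whose TLE4 values chose the family and are a description. A347S and Δ486 differed by -0.01. EAPP and wild type KLF11, which were not used in the choice, differed by -0.17 (95% interval -0.50 to 0.15, adjusted p = 0.52).

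Over the other 7 measured genes, limma called 0 in each of these direct comparisons. The shares of all clusters called were 2.51%, 6.01% and 3.26% for EAPP against wild type KLF11, A347S and Δ486, and 0% for A347S and Δ486 against the wild type and against each other. With the p left unadjusted and the same fold, 0.181% and 0.219% of clusters passed for A347S and Δ486 against the wild type, with 0 of the other 7 genes. At an adjusted p without the fold threshold, EAPP differed from wild type KLF11, A347S and Δ486 in 1, 3 and 1 of the 7 genes, against 10.8%, 23.4% and 15% of clusters.

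**Figure D2:**
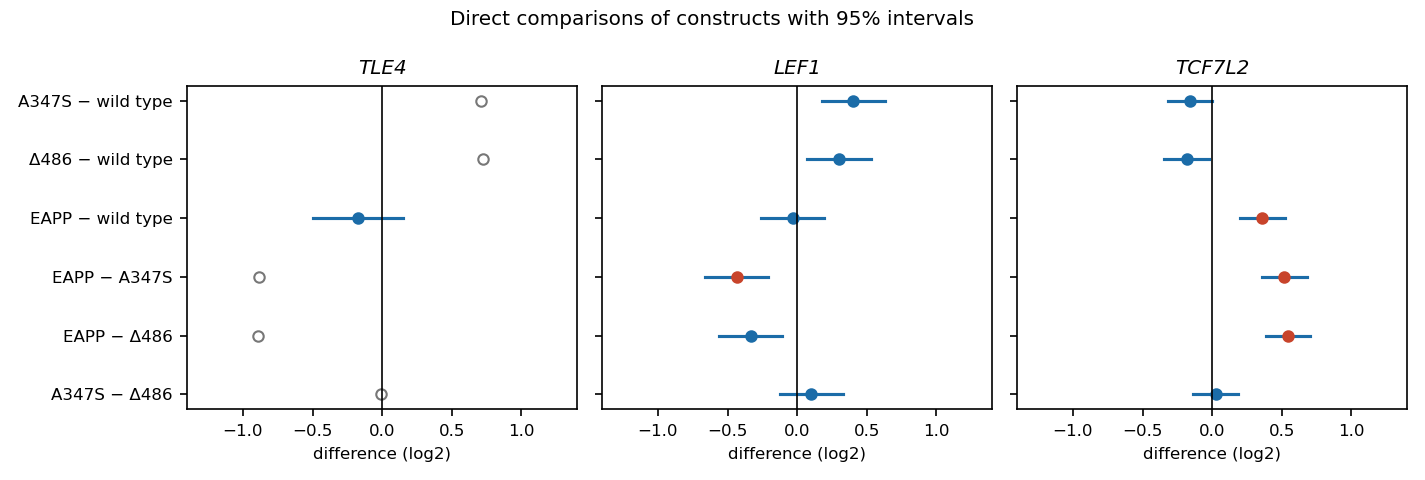
Difference between constructs (log2, horizontal axes) for TLE4, LEF1 and TCF7L2, with limma's estimate as a point and its 95% interval as a line; filled points are red where the adjusted p was under 0.05, and open grey points without a line are TLE4 values that chose the family. The TLE4 points of EAPP against A347S and Δ486 lie at -0.88 and -0.89, and TCF7L2 was higher with EAPP than with all 3 other constructs.

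Genes with a course like that of TLE4 were looked for among the other 19228 clusters with a single symbol, by the root mean square difference of the 5 condition means, each gene centred on its own mean. The 5 nearest were L3MBTL3, a reader of methylated lysine, EFNB2, the membrane ligand ephrin-B2, USP30, a mitochondrial deubiquitinase, STRIP2 and CXCR4, a chemokine receptor. Their differences from TLE4 were 0.19 to 0.20 on the log2 scale over the 5 conditions. USP30 stood at 1.08, 1.59, 1.35 and 0.37 with wild type KLF11, A347S, Δ486 and EAPP, and EFNB2 at 0.86, 1.15, 1.17 and 0.42. In the same order L3MBTL3 stood at 0.76, 1.16, 1.15 and 0.31. STRIP2 stood at 0.59, 1.19, 1.04 and 0.53, and CXCR4 at 0.35, 1.13, 1.13 and 0.27. The 5 genes were found by closeness to TLE4, so their likeness to it was fixed by the search. Within the family LEF1, read at a low signal, was the nearest to TLE4, at 0.38, and the other 6 lay between 0.64 and 0.84.

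The other full-length Groucho genes did not share this course. TLE1, the neighbour of TLE4 on the chromosome, read 7.50 and 7.36 with empty vector, 7.08 and 7.05 with wild type KLF11, 7.02 and 6.68 under A347S, 7.15 and 7.19 under Δ486, and 7.36 and 7.14 under EAPP. The empty vector arrays were the highest of the 10 and the A347S arrays the lowest, with 0.34 between the 2 A347S arrays. Against empty vector TLE1 stood at -0.58 with A347S (standard error 0.12, adjusted p = 0.00451), a 1.49-fold change that fell just short of the 1.5-fold threshold. It passed that threshold when the first A347S array (-0.75) or the second of the empty vector (-0.64) was omitted. With wild type KLF11, Δ486 and EAPP it stood at -0.37, -0.26 and -0.18, and none of these had an adjusted p under 0.05. EAPP exceeded A347S by 0.40 (adjusted p = 0.0341).

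TLE2 and TLE3, also full-length corepressors, gave no adjusted p under 0.05 in any of the 10 comparisons. TLE2 ranged from 6.33 on a wild type KLF11 array to 6.89 on an empty vector array, and its empty vector arrays alone were 0.39 apart, more than its condition means spanned (0.28). TLE3 ranged from 7.80 on a wild type KLF11 array to 8.21 on an empty vector array. Its change against empty vector was -0.25 with wild type KLF11 (standard error 0.11, adjusted p = 0.162) and between -0.11 and -0.04 with the mutants. The 95% interval of TLE2 reached a decrease of 1.5-fold with wild type KLF11 (-0.60 to 0.04) and did not reach it with A347S (-0.53 to 0.12), Δ486 (-0.40 to 0.25) or EAPP (-0.35 to 0.30).

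TLE5, the short member without WD40 repeats, read 8.97 and 8.92 with empty vector, 8.72 and 8.66 with wild type KLF11, 8.66 and 8.51 under A347S, 8.70 and 8.53 under Δ486, and 8.72 and 8.80 under EAPP. The empty vector arrays lay above all 8 others, whose conditions overlapped in part. The change was -0.36 with A347S (standard error 0.09, adjusted p = 0.0115) and -0.33 with Δ486 (adjusted p = 0.0217), both under the fold threshold. With wild type KLF11 it was -0.26 (adjusted p = 0.073) and with EAPP -0.18 (adjusted p = 0.589).

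Among the TCF/LEF factors, TCF7L2 and LEF1 moved in opposite directions, LEF1 at a low signal that may not exceed background. TCF7L2 read 8.37 and 8.43 with empty vector, 7.98 and 7.99 with wild type KLF11, 7.85 and 7.80 under A347S, 7.79 and 7.81 under Δ486, and 8.29 and 8.40 under EAPP. The EAPP arrays overlapped those of empty vector, and both lay above the 6 arrays of the other constructs. The widest gap between the arrays of a condition was smaller than for any other measured gene of the family.

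TCF7L2 fell by 0.60 with Δ486 (standard error 0.07, adjusted p = 0.000507), a 1.51-fold change just inside the threshold. It stood at -0.57 with A347S (adjusted p = 0.000318) and at -0.41 with wild type KLF11 (adjusted p = 0.00423), both under the fold threshold. The call with Δ486 was lost after cyclic loess scaling (-0.52), after quantile scaling (-0.53) and when the second empty vector array was omitted (-0.56), while the adjusted p stayed under 0.05 in each of these. With EAPP the change was -0.05 (95% interval -0.21 to 0.11). In direct comparison EAPP exceeded wild type KLF11 by 0.36 (adjusted p = 0.0129), A347S by 0.52 (adjusted p = 0.000873) and Δ486 by 0.54 (adjusted p = 0.00142). The differences of A347S and Δ486 from the wild type were -0.16 and -0.18, with adjusted p = 0.35 and 0.431.

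LEF1 read 4.25 and 4.23 with empty vector, 4.61 and 4.32 with wild type KLF11, 4.95 and 4.79 under A347S, 4.74 and 4.80 under Δ486, and 4.46 and 4.41 under EAPP. The empty vector arrays were the lowest and the 4 arrays of A347S and Δ486 the highest, as for TLE4. LEF1 rose by 0.63 with A347S (standard error 0.10, adjusted p = 0.00123). This call needs the first A347S array, without which the change was 0.55. With Δ486 LEF1 stood at 0.53 (adjusted p = 0.00483), and with wild type KLF11 and EAPP at 0.23 and 0.20 (adjusted p = 0.169 and 0.632). It was lower with EAPP than with A347S by 0.44 (adjusted p = 0.0119). All 10 values lie under the median cluster, and the deposited values carry no background reading, so whether this cluster was above background cannot be told here. On every array LEF1 also read below the mean of the markers of other cell types (5.13 to 5.24). Single markers lay on both sides of LEF1, such as PTPRC (3.44 to 3.75) and CPA1 (5.78 to 6.17). The changes of LEF1 are therefore those of a low signal. The means of TLE4 and TLE2 over the arrays also lie under the median cluster, nearer to it.

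TCF7L1, the repressor of the family, read 7.94 and 7.73 with empty vector, 7.48 and 7.65 with wild type KLF11, 7.44 and 7.37 under A347S, 7.51 and 7.61 under Δ486, and 7.61 and 7.83 under EAPP. The arrays of A347S were the lowest, and those of EAPP overlapped empty vector. The change was -0.43 with A347S (standard error 0.11, adjusted p = 0.0122). With wild type KLF11 and Δ486 it was -0.27 and -0.28 (adjusted p = 0.116 and 0.0913), and with EAPP -0.12.

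**Figure D3:**
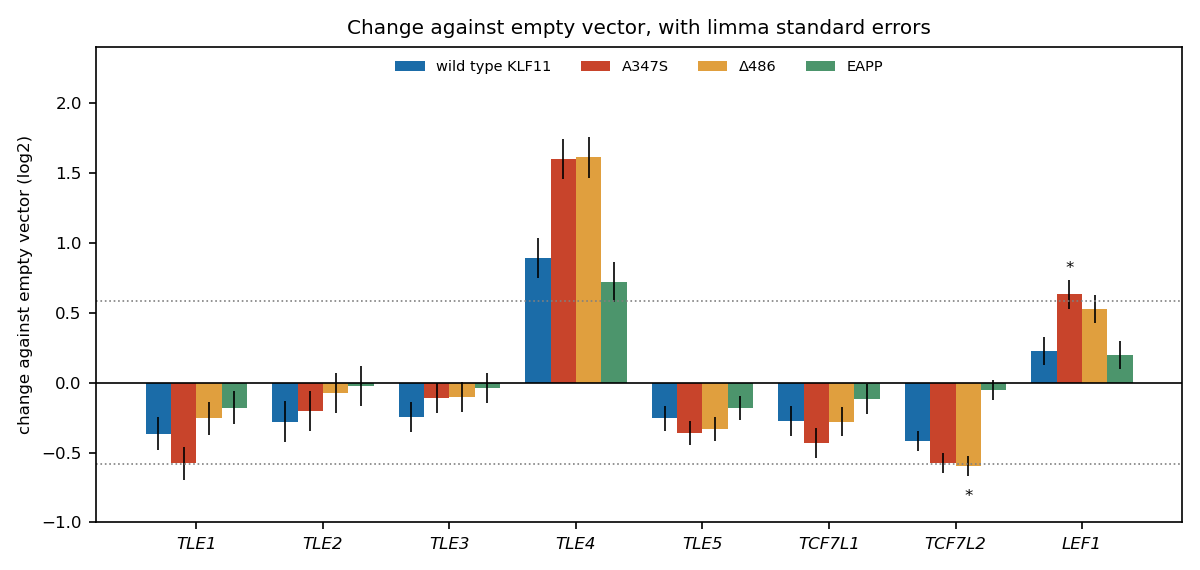
Change against empty vector (log2, vertical axis) of each measured gene with the 4 constructs; bars start at 0, error lines are limma's standard errors, dotted lines mark the 1.5-fold threshold and asterisks the changes that passed it with an adjusted p under 0.05, not marked for TLE4. TLE4 and LEF1 point up with every construct, and the other 6 genes point down with every construct.

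Counted over the 8 genes, limma called 1 with wild type KLF11 (TLE4), 2 with A347S (TLE4 and LEF1), 2 with Δ486 (TLE4 and TCF7L2) and 0 with EAPP. The shares of all clusters called were 3.99%, 8.98%, 5.61% and 0.00477%. Since TLE4 chose the family, its part of these counts was fixed in advance, and the other 7 genes gave 0, 1, 1 and 0. At an adjusted p without the fold threshold the other 7 genes gave 1, 5, 3 and 0, against 17.3%, 28.4%, 22.4% and 0.00477% of all clusters. Their arrays did not overlap those of empty vector for 7, 5, 5 and 3 genes, against 57.6%, 63.6%, 61.7% and 39.3% of all clusters. The median change of the 8 was -0.26, -0.28, -0.18 and -0.05 with wild type KLF11, A347S, Δ486 and EAPP, where the median over all clusters was -0.02, 0.01, 0.02 and 0.00. The 4 comparisons share the empty vector arrays, so equal signs across constructs are not separate observations.

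The rest of the pathway was read from 6 lists with 162 genes besides the family, of which 156 had a cluster that named no other gene. Limma called 2 of the 156 with wild type KLF11 (0 rose, 2 fell), 15 with A347S (1 rose, 14 fell), 6 with Δ486 (1 rose, 5 fell) and 0 with EAPP. These are 1.28%, 9.62%, 3.85% and 0% of the lists, beside the 3.99%, 8.98%, 5.61% and 0.00477% of all clusters. The Δ486 count was 3 after cyclic loess and after quantile scaling. By list the shares called with A347S were 0% of the ligands, 10.5% of the receptors, 8.33% of the cytoplasmic genes, 18.2% of the nuclear partners, 12.5% of the TCF targets and 7.14% of the DNA-binding proteins, each a count of at most 4 genes. Omitting 1 array changed the wild type count to 4 (the second of empty vector) or 6 (the second of the wild type).

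None of the 20 measured Wnt ligands and secretion genes was called with any construct, where the shares of all clusters would amount to fewer than 2 genes in 20. Of 38 receptors and extracellular regulators, FZD7, a Frizzled receptor, had the widest change. It read 9.26 and 9.19 with empty vector, 8.24 and 8.30 with wild type KLF11, 8.11 and 7.88 under A347S, 8.44 and 8.23 under Δ486, and 8.84 and 8.78 under EAPP. Its fall with wild type KLF11 was -0.95, under A347S -1.23 and under Δ486 -0.89 (standard error 0.10), and it stood at -0.41 with EAPP (adjusted p = 0.29). FZD3, another Frizzled, went the other way and rose by 0.71 with A347S. It stood at 0.50, 0.43 and -0.05 with wild type KLF11, Δ486 and EAPP. LGR4, a receptor for R-spondins that strengthen the Wnt signal, fell by 0.62 with A347S. DKK1, a secreted inhibitor and also a TCF target, fell by 0.63 with A347S. With wild type KLF11, Δ486 and EAPP, LGR4 stood at -0.44, -0.47 and -0.16, and DKK1 at -0.42, -0.41 and -0.40.

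Of 24 cytoplasmic genes, AMER1, a member of the complex that degrades β-catenin, fell by 0.76 with wild type KLF11 and 0.74 with A347S (standard error 0.08). Its value under Δ486 was -0.58, just under the fold threshold, and under EAPP -0.09. CSNK1D, a casein kinase, fell by 0.62 with A347S.

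Nuclear partners of β-catenin and corepressors, 22 measured, had a median change of -0.26, -0.35, -0.31 and -0.04 with wild type KLF11, A347S, Δ486 and EAPP. HDAC1 and HDAC3 are histone deacetylases, and HDAC1 is known to bind Groucho proteins. HDAC1 read 12.28 and 12.27 with empty vector, 11.78 and 11.79 with wild type KLF11, 11.61 and 11.54 under A347S, 11.74 and 11.63 under Δ486, and 12.23 and 12.24 under EAPP. The EAPP arrays were 0.04 below empty vector in the mean, while the 6 other construct arrays were all lower. HDAC1 fell by 0.70 under A347S and by 0.59 under Δ486 (standard error 0.07), while the wild type value was -0.48. HDAC3 fell by 0.60 with A347S and stood at -0.36, -0.45 and -0.03 with wild type KLF11, Δ486 and EAPP. TNIK, a kinase that acts with TCF7L2, fell by 0.81 under A347S and by 0.66 under Δ486. Its values with wild type KLF11 and EAPP were -0.58 and -0.34. HMGXB4, an HMG-box protein, fell by 0.60 with A347S and stood at -0.30, -0.31 and -0.08 with wild type KLF11, Δ486 and EAPP.

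Among 32 TCF target genes the median change was -0.08, -0.04, 0.04 and -0.02 with the 4 constructs. MYC, a growth regulator, fell by 0.80 under A347S and by 0.65 under Δ486 (standard error 0.08). JUN, a subunit of the AP-1 factor, fell by 0.68 and 0.59 (standard error 0.09). With wild type KLF11 and EAPP, MYC stood at -0.52 and -0.34, and JUN at -0.52 and -0.38. VEGFA, an angiogenic growth factor, fell by 0.73 with A347S and stood at -0.46, -0.56 and -0.38 with wild type KLF11, Δ486 and EAPP. BMP4, a signalling ligand, rose by 0.59 with Δ486 and stood at 0.03, 0.17 and 0.18 with wild type KLF11, A347S and EAPP. The targets most often read as a Wnt signal, AXIN2, NKD1, LGR5, RNF43, ZNRF3, NOTUM and SP5, were called with no construct, and are named here after their values were seen. The shares of all clusters called were 3.99%, 8.98%, 5.61% and 0.00477% with the 4 constructs, so the lack of calls among so few genes says little. MYC, JUN and VEGFA respond to many other signals as well, and which signal lay behind their changes was not tested.

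Of 28 DNA-binding proteins that recruit Groucho, 2 were called, both with A347S, a share of 7.14% that is below the 8.98% of all clusters. FOXA2, a forkhead factor of endoderm, fell by 0.73 (standard error 0.13) and HHEX, a homeobox repressor of liver and pancreas, fell by 0.73 (standard error 0.10). With wild type KLF11, Δ486 and EAPP, FOXA2 stood at -0.47, -0.53 and -0.38, and HHEX at -0.42, -0.49 and 0.07. The HES and RUNX genes of the list were called with no construct, which says little for so few genes where at most 8.98% of all clusters were called.

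**Figure D4:**
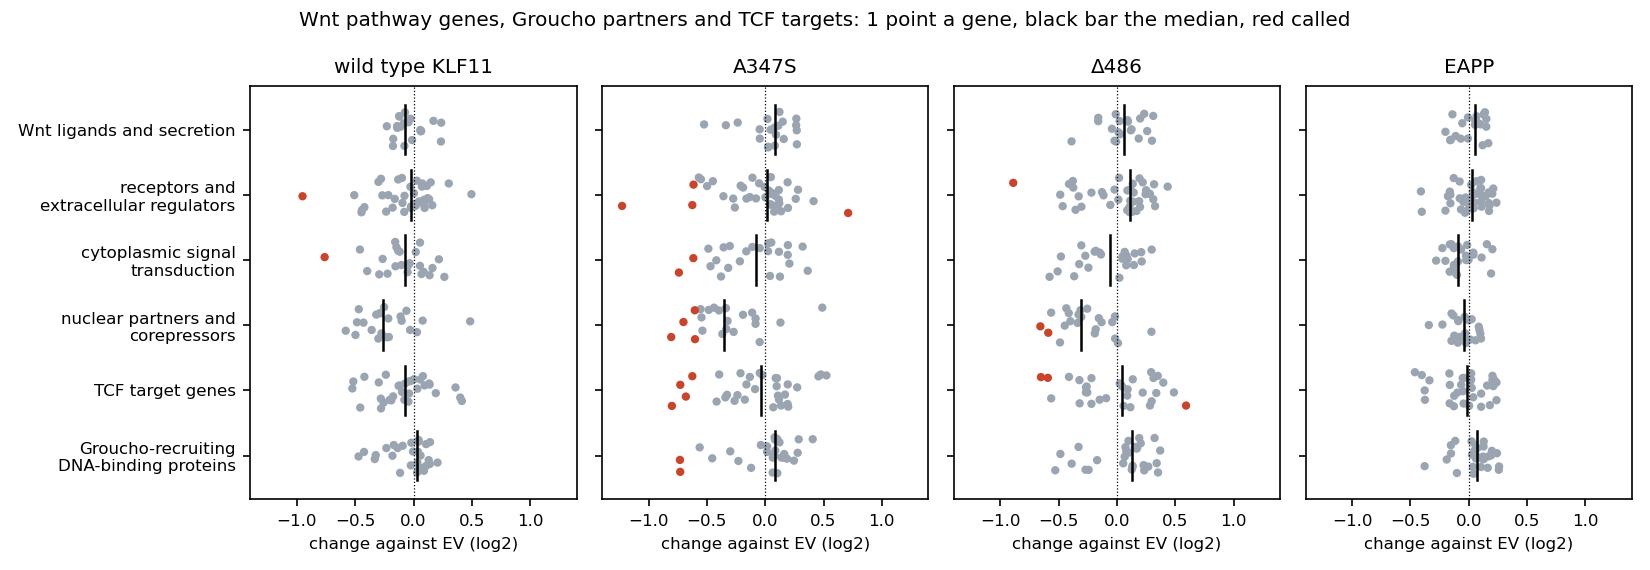
Change against empty vector (log2, horizontal axes) of the genes of 6 pathway lists with each construct, 1 point per gene, red where called, with a black bar at the median of the list. Most called genes lie on the lower side with A347S and none with EAPP, and the median of the nuclear partners is below 0 with the wild type, A347S and Δ486.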

How the data were processed

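The authors hybridized RNA to Affymetrix Human Gene ST arrays and deposited log2 values per transcript cluster, background-subtracted and normalized by Robust Multiarray Analysis; the processing notes name Partek 6.6. No source read here names the build behind the probe annotation. Precision is limited by 2 arrays per condition. A linear model with 5 condition means was fitted to all 10 arrays over 20961 clusters with a symbol (limma 3.58.1, R 4.3.3), and p-values were adjusted by Benjamini-Hochberg over all clusters of a comparison. Calls need an adjusted p under 0.05 and a 1.5-fold change, since the study's text gives 1.5 both as a fold and as a log2 change; the latter was an alternative. The pipeline was tested on simulated data. Named genes besides the family are the called genes of each list, at most 5 with the largest change, and the 5 nearest to TLE4. The members and lists were chosen with earlier results of these data known. Plots used matplotlib 3.10.9 (Python 3.11.15).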

Additional observations from a re-analysis of the deposited data

How the results depend on the processing

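Of the 7 calls of single family genes, 5 were of TLE4, whose values chose the family. All 7 kept their direction under the 23 alternatives, where these gave a value. Alternatives that alter only the test or the threshold leave the difference of means as it was, so they could not turn a direction. Some smaller changes that were not called did change sign, such as TLE2 with Δ486 against empty vector (-0.27 to 0.12). Counts are given for wild type KLF11, A347S, Δ486 and EAPP against empty vector. They were 1, 2, 2 and 0 for the family and 2, 15, 6 and 0 for the 156 pathway genes. Unless said otherwise, family counts include TLE4, whose part with A347S and Δ486 was fixed by the choice of the family and is not a test. With Δ486 cyclic loess and quantile scaling each gave 1 and 3. A plain t-test, 2 arrays against 2, was also run, without the Bayes correction that the paper's methods name. After adjustment it called 0 family genes in each comparison and 0 pathway genes against empty vector. With 2 arrays against 2 it has little power once adjusted over all clusters, so these counts do not show a lack of change. With its p unadjusted and the same fold, the family counts against empty vector were 1, 2, 2 and 0. For A347S and Δ486 against wild type KLF11 they were 1 and 1, and 0 in the remaining comparisons. The share of all clusters that passed this t-test with the fold is not given here, so these counts are a description only. Without clusters under the median level, which drops TLE4, LEF1 and TLE2 by construction, 0, 0, 1 and 0 family genes remained called, with 1 pathway gene for wild type KLF11, and 0 for EAPP against A347S and against Δ486. With an adjusted p alone, the counts were 2, 6, 4 and 0 for the family and 30, 59 and 46 for the pathway, with 1, 4 and 2 family genes for EAPP against wild type KLF11, A347S and Δ486. By that rule 17.3%, 28.4%, 22.4% and 0.00477% of all clusters passed against empty vector. For EAPP against wild type KLF11, A347S and Δ486 these shares were 10.8%, 23.4% and 15%. At the methods' log2 change of 1.5 they were 0, 1, 1 and 0 and, for the pathway, 0 with each construct, and 0 family genes passed for EAPP against A347S and Δ486. With limma's p unadjusted and the fold threshold, 1 family gene, TLE4, passed for EAPP against empty vector. For A347S and Δ486 against wild type KLF11, 0 of the other 7 genes passed. A variance trend with robust moderation gave 1 for EAPP against empty vector, again TLE4, with no share of all clusters given beside it. With single arrays left out, the Δ486 family count was 1 to 2, that of EAPP against Δ486 1 to 2 and the wild type pathway count 2 to 6. The count for EAPP against Δ486 was 2 without the first EAPP array. A condition reduced to 1 array was taken to have the spread of the others. Little pairing by replicate number was seen, as the deviations of same-numbered arrays correlated above 0.1 in 1 of 10 pairs of conditions (-0.35 to 0.15). The lowest value, -0.35, was that of Δ486 with EAPP. A factor shared by arrays of different numbers was not tested. With the replicate number as a block the family counts were 1, 2, 2 and 0 and no family call changed.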
